A study of Sus scrofa with 2 samples.

Results

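GADD45A, CFLAR, XIAP and BCL2L1 are genes of the p53 response and of the control of caspases and cell survival, and their transcripts were measured in ovarian tissue of conventional pigs and minipigs. They were taken as every probe, other than controls, whose transcript accession belongs to 1 of these 4 genes in the RefSeq annotation of the pig. This gave 9 probes of 43597 and 4 of the 2459 genes that could be named in this way. GADD45A and BCL2L1 had 1 probe each, XIAP had 2 and CFLAR had 5. The minipig group was Midget minipigs and the conventional pig group was Yorkshire sows, both 10 months old, with no treatment named. Ovaries were taken on day 15 of the estrous cycle, when corpora lutea regress, and luteal tissue was cut away before RNA was extracted from what remained. The methods name 5 animals of each breed, but 1 single-colour array was run per breed, and the sources do not say whether its RNA came from 1 animal or from a pool.

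Apoptosis in the ovary removes granulosa cells from follicles that do not ovulate, a process called atresia. Death receptors on the cell surface recruit caspase-8, which activates the executioner caspases, and a second route runs through the mitochondria, where the BCL2 family controls the release of cytochrome c. CFLAR, also called FLIP, resembles caspase-8 without its protease activity and blocks it at the receptor. XIAP binds active caspases and inhibits them, BCL2L1 encodes BCL-xL, which guards the mitochondrial membrane, and GADD45A is a stress gene that p53 induces and that slows the cell cycle. The study asked whether survival and apoptosis signals in the ovary differ between the breeds.

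Levels are log2 of the processed intensity, which the scanner software corrects for background, minus the 75th percentile of the array, so that 0 is an intensity of 494 on the minipig array against 513 on the conventional pig array. Differences are conventional pig minus minipig, on the log2 scale. Since each breed had 1 array, no difference could be checked in replicates, and none was tested. The error of spots comes from 42 probes printed several times. Their spread within each array gives a difference between single spots on the arrays an SD of 0.25. This SD does not cover labelling, hybridisation or variation between animals. The labels of the arrays are in doubt. A table of normalized values deposited beside the scanner output gives the arrays to the opposite breeds: over its 5617 probes, 99.96% of the values of its minipig column equal those of the conventional pig array up to a constant (tolerance 0.01). The labels of the scanner output are used throughout, and under those of the table every direction below is exchanged.

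Of the 3 genes that were well above background, GADD45A was higher on the minipig array, whereas CFLAR and XIAP were higher on the conventional pig array. Each of their 8 probes differed by at least 2-fold, with 7 higher on the conventional pig array and the GADD45A probe, the remaining 1, lower. These probes stand for only 3 genes, and 5 of the probes measure CFLAR. The genes were chosen with earlier results of these data known, so setting them beside all probes is no test. Among all 38883 probes with a difference, 7.48% passed 2-fold toward the conventional pig and 8.94% toward the minipig. For genes, taken as the median over their probes, the shares were 11.7% and 7.96% of 2363. With the arrays centred on their medians instead, 364 and 140 genes passed 2-fold in place of 277 and 188, and with normexp background correction 207 and 98 did. Under both the calls of GADD45A, CFLAR and XIAP stood. The BCL2L1 probe did not clear the background of either array, so the gene has no difference.

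**Figure D1:**
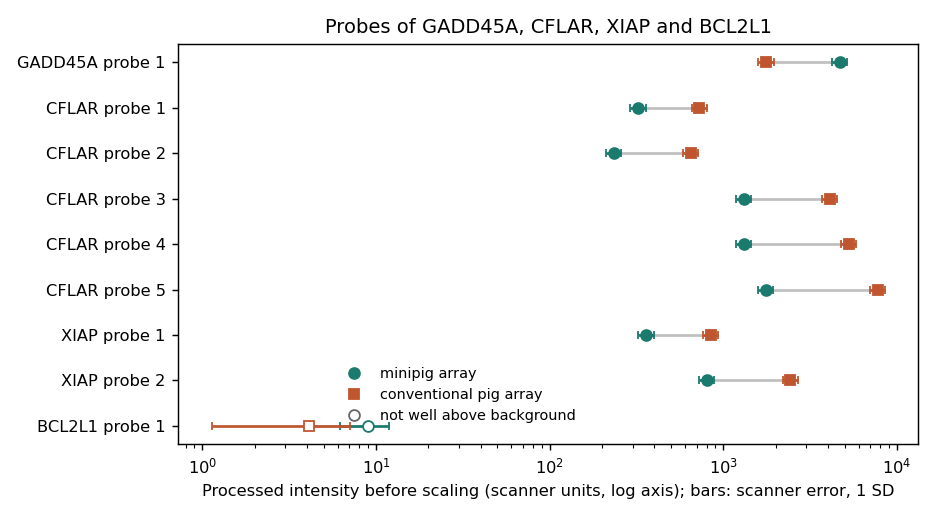
Processed intensity of each probe of GADD45A, CFLAR, XIAP and BCL2L1 on the minipig array (circles) and the conventional pig array (squares), before scaling and on a log axis, with the error that the scanner software gives each spot (1 SD). GADD45A lay at 4695 for the minipig and 1766 for the conventional pig, all probes of CFLAR and XIAP lay higher on the conventional pig array, and the BCL2L1 probe (open symbols) lay near background on both.

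GADD45A had an intensity of 4695 ± 470 on the minipig array against 1766 ± 177 on the conventional pig array, where the error is the SD that the scanner software assigns to the spot. On the scaled log2 axis these are levels of 3.25 and 1.78. The difference was -1.46, or 2.76-fold. This is 5.76 times the SD of a difference between single spots, a ratio that is no test of the breeds. Only 1 probe measured the gene, so no second probe bears on it, which was also the case for 1099 of the 2363 genes with a value. The 2 nearest differences in the pathway lists described below were those of BIRC5 (-1.25) and PMAIP1 (-1.09). This likeness rests on 1 difference per gene over 2 arrays, and 70 of all genes lay within 1 spot SD of GADD45A.

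CFLAR was higher on the conventional pig array with each of its 5 probes, all designed on the same transcript. In order of their difference, the first probe had an intensity of 324 on the minipig array against 728 on the conventional pig array, a difference of 1.11. The one after it had 234 and 650, a difference of 1.42. The next had 1317 and 4105, a difference of 1.59. All 5 probes passed 2-fold in the same direction but differed in size. The remaining pair had 1318 and 5274, a difference of 1.95, and 1747 and 7722, a difference of 2.09. The median over the probes was 1.59, or 3.01-fold, with an SD of 0.39 between probes, which is larger than the spot SD. The 3 probes with the highest intensities on both arrays gave the 3 largest differences. Over the 65 genes that had 5 probes, all well above background, the range between probes had a median of 0.50, against 0.98 for CFLAR. Of these 65 genes, 10 had every probe past 2-fold in the same direction, CFLAR among them.

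XIAP was also higher on the conventional pig array with both of its probes. The first gave 360 on the minipig array against 847 on the conventional pig array, a difference of 1.18, and the second gave 807 and 2433, a difference of 1.54. Their median was 1.36, or 2.57-fold, and they differed by 0.36, against a median range of 0.28 over 637 genes with 2 such probes. Of these genes, 86 had both probes past 2-fold in the same direction. The first XIAP probe was the only probe of the 3 genes that any scaling or background correction took under 2-fold, at 0.97 with normexp background correction. The median of the gene then stood at 1.18.

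The BCL2L1 probe gave an intensity of 9.04 ± 2.80 on the minipig array against 4.11 ± 2.98 on the conventional pig array, and neither spot passed the scanner's flag for being well above background. The lowest intensities that passed it lay at a level of -5.54 for the minipig and -5.47 for the conventional pig, while this probe lay at -5.77 and -6.96. No fold was taken, and a difference in BCL2L1 was not detectable with this probe. Taken without the filter on dim probes, the difference would be -1.19 with a scanner SD of 1.14.

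Between the genes, the differences of GADD45A and CFLAR were separated by -3.05 on the log2 scale (GADD45A minus CFLAR) and those of GADD45A and XIAP by -2.82. These gaps do not depend on the constant taken from each array, since it cancels. CFLAR and XIAP lay 0.23 apart, which is less than the SD of 0.39 between the probes of CFLAR. By the rule of nearest differences, FAS (1.48) and XIAP were closest to CFLAR, and CCNG1 (1.27) and FAS were closest to XIAP. The FAS value is the median of a measured probe at 0.74 and a lower bound, so its place in this order is not settled.

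**Figure D2:**
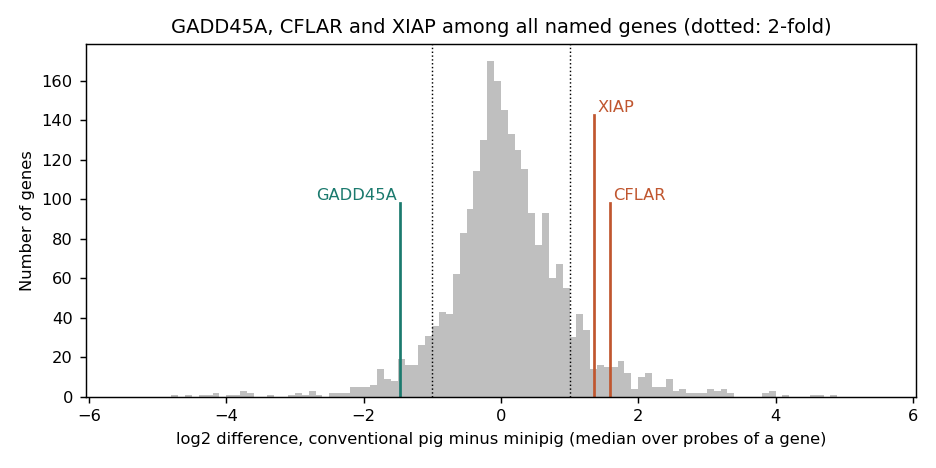
Number of genes by log2 difference, conventional pig minus minipig, for 2363 named genes in bins of 0.1, with dotted lines at 2-fold. GADD45A lies at -1.46 in the lower tail, and XIAP at 1.36 and CFLAR at 1.59 in the upper tail, outside the 25th and 75th percentiles of all genes at -0.36 and 0.55.

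Other genes of these pathways were taken from 8 lists with 145 genes in all, of which 44 had a value, so the lists describe only the genes measured. Of the 41 of these that are not GADD45A, CFLAR or XIAP, 5 passed 2-fold toward the conventional pig (12.2%) and 3 toward the minipig (7.32%), beside 11.7% and 7.96% of all genes. Their median difference was -0.06, and that of all genes was 0.04. With the 3 genes included the counts were 7 and 4, and 22 genes lay on each side of 0. The shares without the 3 genes are close to those of all genes, and with them the shares were 15.9% and 9.09%.

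**Figure D3:**
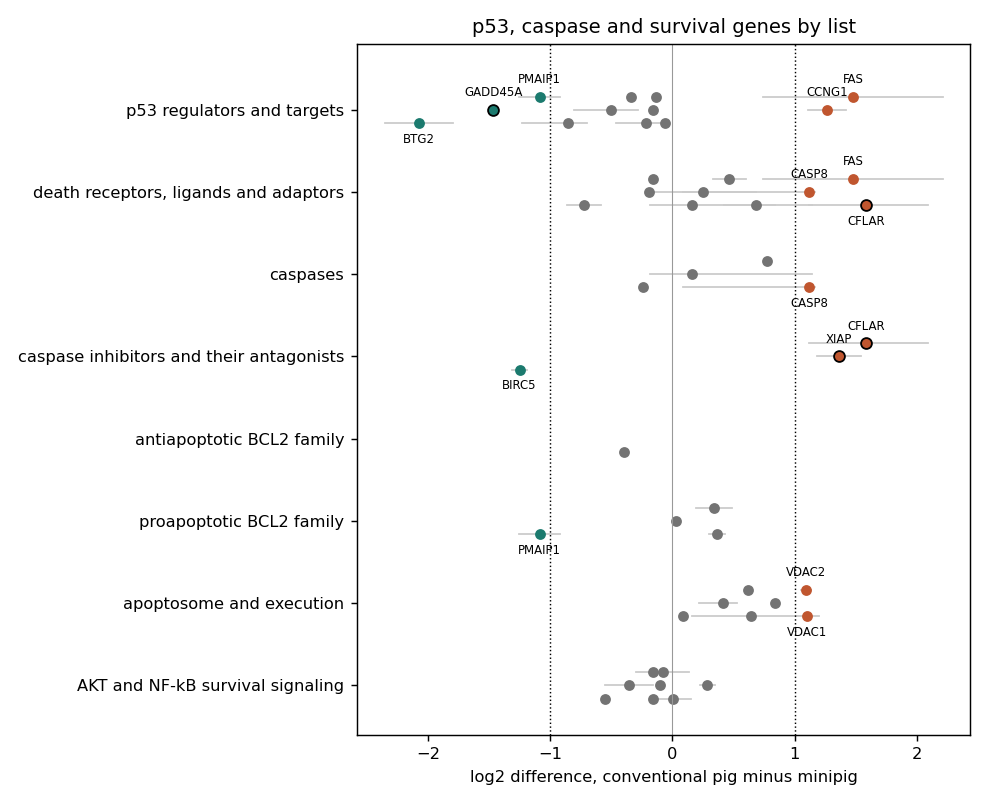
Log2 difference, conventional pig minus minipig, of 44 genes in 8 lists, with grey lines from the lowest to the highest probe of a gene, dotted lines at 2-fold and black rims for GADD45A, CFLAR and XIAP. Genes past 2-fold are named, 7 to the right and 4 to the left, and a gene in several lists is drawn in each.

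Genes that p53 regulates, or that regulate p53, had values for 12 of 45 members, with a median difference of -0.28. Of the 12, 10 were higher on the minipig array, as were 47.5% of all genes. Of the 10, 3 passed 2-fold, beside 7.96% of all genes. These were BTG2, which restrains cell division (-2.07, with levels of 3.16 on the minipig array against 1.09 on the conventional pig array), GADD45A, and PMAIP1, which encodes the BH3-only protein NOXA (-1.09). The only genes of the list higher on the conventional pig array were FAS and CCNG1, and both passed 2-fold, beside 11.7% of all genes. CCNG1, which encodes cyclin G1, stood at 2.06 on the minipig array against 3.32 on the conventional pig array. PMAIP1 lost its 2-fold call under 5 of 7 alternatives and reached -0.53 with normexp correction.

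Death receptors, their ligands and adaptors had values for 10 of 19 genes, of which 7 were higher on the conventional pig array, as were 52.5% of all genes. CFLAR, FAS and CASP8 passed 2-fold there, beside 11.7% of all genes, and none did on the minipig array. FAS, the receptor for Fas ligand, had probes at 0.74 and 2.21, and the second is a lower bound, taken from the probe's own level on the minipig array, where it was not well above background. With only the measured probe it did not pass 2-fold. TNFSF10, which encodes the ligand TRAIL, had the lowest difference of the list, at -0.72.

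Among caspases, CASP8, the initiator that CFLAR blocks, had a difference of 1.12, with 2 probes at 1.12 and 1.17 and 1 at 0.09. It fell to 0.87 with normexp correction. CASP1, an inflammatory caspase, had a difference of -0.24. CASP10, a second initiator of the receptor route, had a median of 0.16 over 6 probes that ran from -0.18 to 1.15. CFLAR, CASP10 and CASP8 follow each other in the annotation of the pig assembly Sscrofa11.1, so the 3 genes are neighbours.

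**Figure D4:**
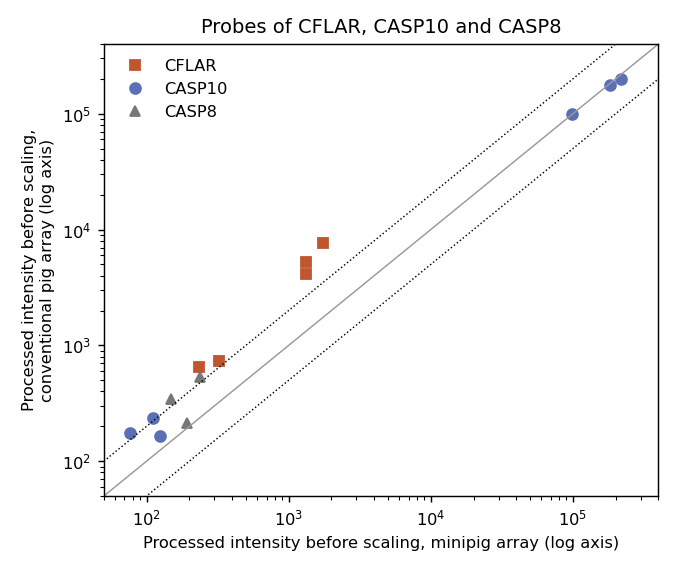
Processed intensity before scaling of each probe of CFLAR, CASP10 and CASP8 on the minipig array and the conventional pig array, on log axes, with a solid line at equal intensity and dotted lines at 2-fold. The 5 CFLAR probes lie above the upper 2-fold line, and the CASP10 probes fall into 3 of very high intensity on the line of equal intensity and 3 of low intensity above it.

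Of the list of caspase inhibitors and their antagonists, 3 of 11 genes had a value, CFLAR and XIAP on the conventional pig side and BIRC5 on the other. BIRC5, which encodes survivin and is expressed in dividing cells, had a difference of -1.25 from 2 probes at -1.31 and -1.19. In the BCL2 family, 1 of 6 survival genes and 4 of 16 death genes had a value. BCL2A1, a survival member, was at -0.40 and BCL2L1 had no value. Of the death genes, BCL2L11 (0.37), BNIP3L (0.34) and BID (0.03) stood near 0. PMAIP1 alone passed 2-fold, toward the minipig, as did 7.96% of all genes.

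Genes of the apoptosome and of the execution phase had values for 7 of 19 members, and all 7 were higher on the conventional pig array, beside 52.5% of all genes, with a median of 0.64. VDAC1 (1.10) and VDAC2 (1.09), pore proteins of the outer mitochondrial membrane that also serve metabolite exchange, passed 2-fold, beside 11.7% of all genes. CAPN2, a calpain protease, was lowest at 0.09. The list holds further mitochondrial proteins, and whether its direction is particular to cell death was not tested. The calls of VDAC1 and VDAC2 ended under quantile and loess normalization, at 0.83 and 0.85 for the lower value of each. In AKT and NF-kB survival signaling 8 of 26 genes had a value and none passed 2-fold, from FOXO3 at -0.55 to CHUK at 0.29. Over all genes, 11.7% passed it toward the conventional pig and 7.96% toward the minipig.

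Some markers of ovarian cell types also differed by at least 2-fold between these arrays. Others stood near 0, such as CYP19A1 (0.09) and ACTA2 (0.10). In whole tissue, fewer cells of a type and less RNA per cell cannot be told apart. Of all genes, 11.7% passed 2-fold toward the conventional pig and 7.96% toward the minipig, and 47.5% were higher on the minipig array. Of the granulosa markers 7 of 10 had a value, 6 of them higher on the minipig array and 5 by at least 2-fold, from FSHR at -3.63 to CYP19A1 at 0.09, and their summed level (the sum over genes of intensity relative to the 75th percentile) was 40.9 on the minipig array against 18.0 on the conventional pig array. Of the luteal markers 6 of 6 had a value, 5 of them higher on the conventional pig array and 4 by at least 2-fold. They ran from LHCGR at -0.62 to HSD3B1 at 3.11, with summed levels of 100.1 and 290.3 in the same order. OXT weighs most in the minipig sum, with a level of 6.04 there against 6.37 on the conventional pig array, a difference of 0.33. The part of these cells in the differences of GADD45A, CFLAR and XIAP was not tested. Among the granulosa markers, the probes of INHBA ran from -3.91 to 0.37 and those of AMH from -2.22 to -0.09. Theca markers had values for 3 of 4 genes, all higher on the minipig array, with summed levels of 82.3 and 11.9, which INSL3 dominates: without it they were 10.3 and 6.53. LHCGR stands in both the theca and the luteal list. The luteal genes past 2-fold were STAR, HSD3B1, CYP11A1 and PTGFR, and the theca list leaves these out. Which cells of the tissue expressed these 4 genes was not tested. Oocyte markers had values for 5 of 7 genes, all higher on the minipig array, with 2.42 and 1.18. Smooth muscle markers had values for 3 of 5, with DES (-2.00) and CNN1 (-1.32) past 2-fold and ACTA2 at 0.10. Endothelial markers had values for 2 of 6, at 0.36 and 0.55, and stromal markers for 1 of 5, DCN at -0.36. Leukocyte markers had values for 3 of 6 genes, with summed levels of 2.56 and 2.69 and CD14 past 2-fold at 1.04.

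**Figure D5:**
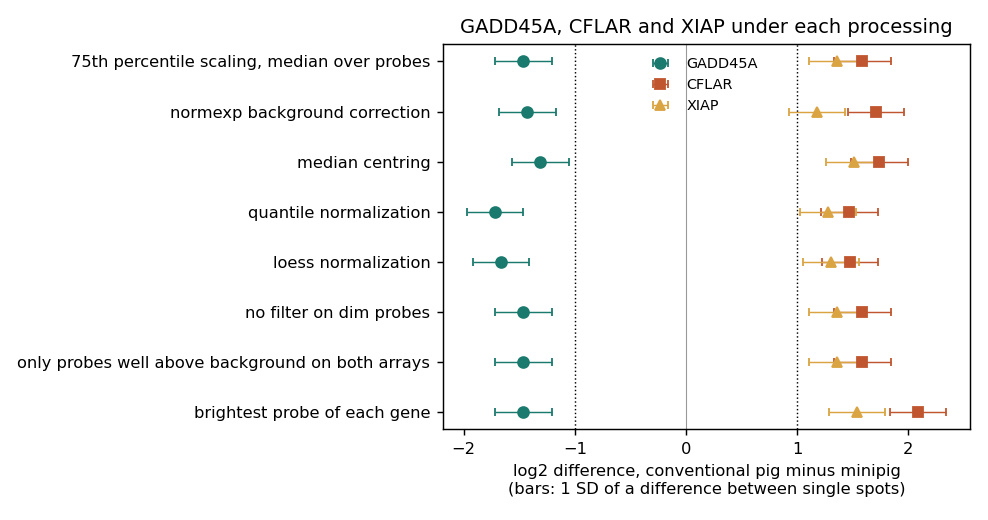
Log2 difference, conventional pig minus minipig, of GADD45A, CFLAR and XIAP under the processing used here (top) and 7 alternatives, with bars for 1 SD of a difference between single spots (0.25) and dotted lines at 2-fold. GADD45A stays between -1.72 and -1.31, CFLAR between 1.47 and 2.09 and XIAP between 1.18 and 1.54.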

How the data were processed

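Per the labels, Cy3-labelled RNA from ovary was hybridised to 1 porcine Agilent array per breed. The authors deposited the output of Agilent Feature Extraction 10.7.3.1 for each array, in which the software had already removed background and spatial trends from the processed intensity of each spot, without scaling the arrays to each other. Their table of normalized log2 values, deposited beside it, covers 5617 probes and was used as an alternative.

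Control spots and outlier spots (5 on the minipig array, 10 on the conventional pig array) were left out, spots of a probe were averaged in log2, and the 75th percentile was subtracted. A probe not well above background on 1 array gives a bound against the higher of its own level there and the lowest level that passed. Accessions were matched without versions to RefSeq (Sscrofa11.1). Genes were named by rule: the 4 genes, list genes past 2-fold, caspases and BCL2 family genes with a value, and the ends of each list. Genes, lists and alternatives were chosen with earlier results of these data known. Some genes covered by this rule are left out here. Both arrays shared 1 slide. The number of arrays limits the precision. Software was Python 3.11.15, numpy 2.4.6, pandas 2.3.3, statsmodels 0.14.6, matplotlib 3.10.9, R 4.3.3 and limma 3.58.1 for normexp. The scaling, the bounds and the 2-fold calls of probes were checked on simulated arrays, and the gene medians were not.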

Additional observations from a re-analysis of the deposited data

How the results depend on the processing

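Under normexp background correction (offset 50, on median spot signals), median centring, quantile normalization, loess normalization (span 0.3), both other filters on dim probes and the brightest probe of each gene, GADD45A, CFLAR and XIAP kept their direction and stayed past 2-fold. GADD45A moved by more than the spot SD with quantile normalization, to -1.72, and CFLAR with the brightest probe, to 2.09. In the deposited log2 table, read with its own breed labels, GADD45A was at 1.47, CFLAR at -1.58 and XIAP at -1.36, each reversed because the table assigns the arrays the other way round. By those labels 7 pathway genes were at least 2-fold higher in the minipig and 5 in the conventional pig. From the scanner output, the number of pathway genes past 2-fold lay between 8 and 12 and their median difference between -0.08 and 0.13. Median centring raised the median over all genes by 0.15 and took the share of 2-fold genes that were higher on the conventional pig array from 59.6% to 72.2%. Normexp correction lowered the number of genes past 2-fold from 277 to 207 on the conventional pig side and from 188 to 98 on the minipig side. BCL2L1 had a value only without the filter on dim probes. No fit across replicates and no paired analysis was possible because each breed has 1 array. Dim probes are limited by background: 4695 probes passed it on neither array.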

Other observations

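CASP10, the neighbour of CFLAR in the annotation, was measured by 6 probes designed on the same transcript that fell into sets far apart. On the minipig array 3 of them had intensities of 98324, 183128 and 219751, and the other 3 had 76.0, 112 and 125. The bright set differed little between the arrays (-0.05, -0.10 and -0.18), while the dim set was higher on the conventional pig array (0.37, 1.02 and 1.15), the direction of CFLAR and CASP8. The median of 0.16 lies between the sets and describes neither. These probes were singled out after their values were seen, and the cause of the gap was not tested.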
